A study of Mus musculus with 59 samples.

Results

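The 9 genes described here encode the urea cycle and the entry steps of amino acid breakdown in liver: *Cps1*, *Otc*, *Ass1*, *Asl*, *Arg1*, *Nags*, *Gls2*, *Tdo2* and *Hal*. They were taken from 21774 protein-coding genes as a functional group. The rule uses no binding value, although the group was proposed with earlier results of these data known. A ChIP-seq peak was counted for a gene when its center lay inside the gene, or when the nearest protein-coding transcription start site (TSS) within 100 kb was that gene's. Of 102931 peaks in 7 deposited lists, 141 met this rule. Peaks of different lists with centers at most 200 bp apart were joined, which gave 46 sites near the 9 genes out of 40474 sites in the genome.

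The lists are maps of BCL6, PPARα and PPARδ in livers of male C57BL/6 mice that were wild type, either fed ad libitum or fasted overnight. A 7th list maps BCL6 in fed male mice labelled as wild type on the same strain that carried the loxP-flanked *Bcl6* fl/fl allele without a Cre driver. Each list combines 3 replicate samples, and the labels give neither the age of the mice nor the liver cell types in a sample. BCL6 is a zinc-finger repressor best known from germinal center B cells. PPARα and PPARδ are lipid-sensing nuclear receptors that bind DNA together with RXR, and the study asked how BCL6 and PPARα share the fasting program of hepatocytes.

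When amino acids are burned for fuel, as in fasting, their nitrogen is released as ammonia, and the liver disposes of it as urea. *Nags* makes N-acetylglutamate, the activator of carbamoyl phosphate synthetase. *Cps1* and *Otc* then work in the mitochondrion, and *Ass1*, *Asl* and *Arg1* in the cytosol, where arginase releases urea and returns ornithine to the cycle. *Gls2*, *Tdo2* and *Hal* feed into this system by starting the breakdown of glutamine, tryptophan and histidine.

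The sequences below are 120 bp of mouse genome (mm10, plus strand, 5′ to 3′) around the center of each gene's site called in the most lists, for the 6 genes ranked first by that number of lists and then by their number of sites. Capitals mark a BCL6 element in *Arg1* and *Nags* (TTCCTAGAA or its reverse complement, up to 1 mismatch) and a FOXA element in *Ass1* (TGTTTAC or its reverse complement, no mismatch). Windows printed wholly in lower case held neither of these, no PPAR element and no C/EBP element.
*Cps1*, 18900 bp upstream, chr1:67104068-67104187: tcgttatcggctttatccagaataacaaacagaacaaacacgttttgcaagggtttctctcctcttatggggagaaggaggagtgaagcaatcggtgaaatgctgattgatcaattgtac
*Arg1*, 15504 bp upstream, chr10:24942915-24943034: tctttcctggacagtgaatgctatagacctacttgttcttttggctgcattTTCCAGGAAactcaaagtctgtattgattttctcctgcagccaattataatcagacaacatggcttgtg
*Hal*, intron 19, chr10:93516018-93516137: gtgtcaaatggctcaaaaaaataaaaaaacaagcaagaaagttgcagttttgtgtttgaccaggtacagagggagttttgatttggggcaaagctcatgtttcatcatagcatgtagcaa
*Ass1*, 9778 bp upstream, chr2:31460433-31460552: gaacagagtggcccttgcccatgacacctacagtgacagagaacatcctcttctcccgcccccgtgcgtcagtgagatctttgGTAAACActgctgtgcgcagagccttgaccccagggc
*Nags*, 2295 bp upstream, chr11:102143159-102143278: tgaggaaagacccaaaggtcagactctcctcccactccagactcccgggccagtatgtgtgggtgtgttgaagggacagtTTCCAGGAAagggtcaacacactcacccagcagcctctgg
*Tdo2*, 184 bp upstream, chr3:81975853-81975972: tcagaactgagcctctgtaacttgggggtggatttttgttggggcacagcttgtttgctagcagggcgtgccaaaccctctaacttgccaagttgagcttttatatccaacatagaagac

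Further windows of the same length were added after their values were seen, because each is a site that the results below return to. They are the *Otc* and *Arg1* sites with a PPAR element in the window (AGGTCA repeated after 1 base, either strand, up to 2 mismatches), the only site with a BCL6 element free of mismatches, the *Hal* promoter site, and the *Cps1* promoter site at which BCL6 and PPARα were called in opposite states. Capitals mark the PPAR element in the first 2 windows, the BCL6 element in the *Tdo2* window and a C/EBP element (TTGCGCAA, up to 1 mismatch) in the *Hal* window.
*Otc*, 12586 bp upstream, chrX:10239660-10239779: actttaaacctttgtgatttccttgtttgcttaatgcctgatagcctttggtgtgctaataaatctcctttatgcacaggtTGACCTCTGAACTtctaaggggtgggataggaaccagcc
*Arg1*, 952 bp upstream, chr10:24928363-24928482: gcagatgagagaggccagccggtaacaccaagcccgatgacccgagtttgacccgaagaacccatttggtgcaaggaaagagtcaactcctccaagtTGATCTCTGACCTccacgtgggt
*Tdo2*, intron 2, chr3:81975079-81975198: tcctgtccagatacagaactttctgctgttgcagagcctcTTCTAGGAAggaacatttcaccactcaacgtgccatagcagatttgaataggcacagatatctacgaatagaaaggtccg
*Hal*, 99 bp upstream, chr10:93488610-93488729: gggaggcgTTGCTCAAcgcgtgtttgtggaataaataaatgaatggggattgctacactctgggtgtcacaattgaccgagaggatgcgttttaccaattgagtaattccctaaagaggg
*Cps1*, 136 bp upstream, chr1:67122832-67122951: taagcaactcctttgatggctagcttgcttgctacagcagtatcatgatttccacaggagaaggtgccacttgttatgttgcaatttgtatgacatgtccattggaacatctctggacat

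All 9 genes held at least 1 site, whereas 52.5% of all protein-coding genes did. *Cps1* held 11 sites, *Arg1* 10, *Otc* 6 and *Ass1* 5. *Nags* and *Tdo2* held 4 each, *Gls2* 3, *Hal* 2 and *Asl* 1. The median was 4 sites per gene, against 1 over all protein-coding genes and 2 over the 11438 genes with at least 1 site. The background of all genes includes genes that are silent in liver, and expression was not measured in these lists. The number of sites also moved with the length of genome assigned to a gene. *Cps1*, *Ass1*, *Arg1* and *Otc* took in 151, 129, 129 and 118 kb, and *Asl* took in 15.6 kb. Per megabase of assigned genome, the order differed: *Nags* held 165 sites per Mb, *Tdo2* 161, *Gls2* 133, *Arg1* 77.7, *Cps1* 73.0, *Asl* 64.2, *Otc* 50.9, *Hal* 43.8 and *Ass1* 38.7. All 9 densities were above the median of 6.11 sites per Mb over all genes, and that of *Ass1* lay just below the upper quartile of 39.2. Over genes with at least 1 site, the median was 36.9 and the upper quartile 71.8 sites per Mb. *Asl*, *Otc*, *Hal* and *Ass1* lay between that median and that quartile, and the other members lay above the quartile.

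**Figure D1:**
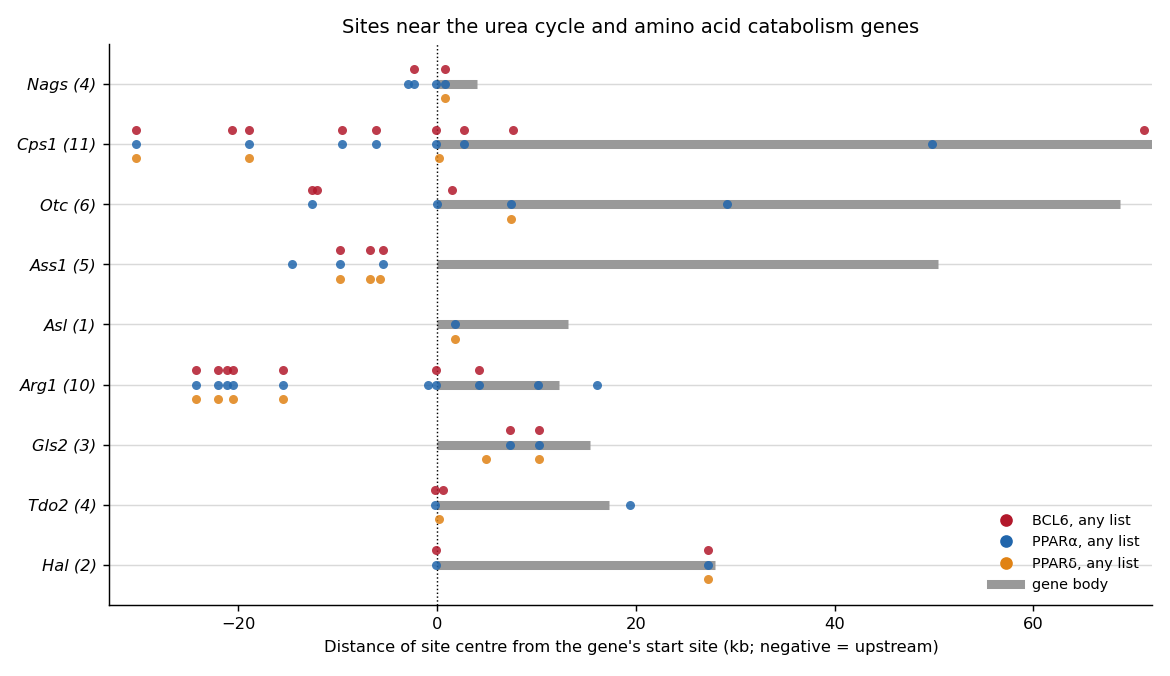
Site centers near each of the 9 genes by distance from the start site in kb (x axis), 1 row per gene with its number of sites in brackets. Dots mark sites called for BCL6, PPARα or PPARδ in any list and gray bars are gene bodies (that of *Cps1* runs past the axis). The 5 sites of *Ass1* are all upstream, and *Arg1* and *Cps1* each have a group of upstream sites beyond 6 kb.

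Of the 46 sites, 26 lay upstream of the start of the curated mRNA, 15 in introns, 3 in coding exons and 2 downstream. The median distance to the start site was 7384 bp. Within 1000 bp of their own start site, 6 genes held 11 sites: *Tdo2* 3, *Cps1*, *Arg1* and *Nags* 2 each, and *Otc* and *Hal* 1 each. Over all genes, 17.2% of sites lay within 1000 bp of a start site, and the members' share was 23.9% (95% Wilson interval 13.9 to 37.9%). This and every later interval covers counting error only, and the number of reads behind each peak is unknown. Of these 11 sites, 6 were called for BCL6 (54.5%, interval 28.0 to 78.7%), against 33.0% of all promoter sites. PPARα was called at 8 of the 11 (72.7%, 43.4 to 90.3%), against 89.1% of all promoter sites.

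PPARα in fasted livers was the factor and state found most widely at these genes. All 9 genes held a PPARα peak in the fasted list, where 46.0% of all protein-coding genes did. In fed livers 8 of 9 held one, all but *Asl*, beside 34.3% of all genes. BCL6 peaks of fed C57BL/6 livers lay at 7 of 9 genes, all but *Ass1* and *Asl*, beside 28.0% of all genes. In fasted livers BCL6 was called at 6 of 9, beside 20.6%, the same genes without *Otc*. In fed *Bcl6* fl/fl livers it was called at 8 of 9, beside 30.9%, with *Ass1* as the added gene. PPARδ was called at 8 of 9 genes in fed livers, all but *Tdo2*, beside 18.6% of all genes. In fasted livers it was called at 3 genes, *Cps1*, *Ass1* and *Tdo2*, beside 8.69%. Among genes with at least 1 site, the corresponding shares ran from 16.6% for PPARδ in fasted livers to 87.6% for PPARα in fasted livers.

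**Figure D2:**
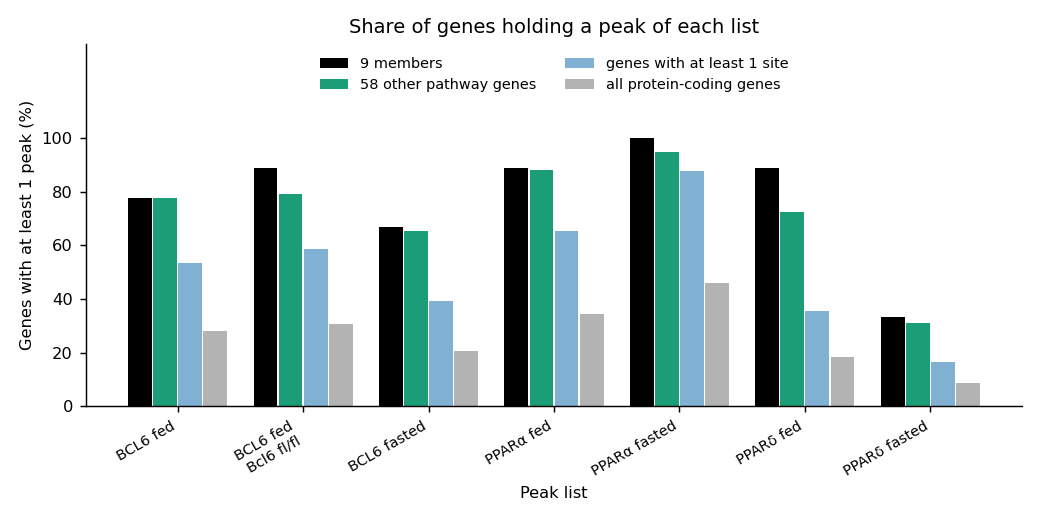
Share of genes (y axis, %) holding at least 1 peak of each of the 7 lists (x axis), for the 9 members, 58 other genes of amino acid and nitrogen metabolism, genes with at least 1 site and all protein-coding genes. Bars have no error because each list is 1 pooled call; in every list the members and the other pathway genes stand above both sets of background genes.

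The other genes of the pathway held peaks about as widely. They are 58 genes of amino acid breakdown, transport and nitrogen handling, of which 56 held a site and only *Arg2*, the extrahepatic arginase, and *Dbt*, a subunit of the branched-chain keto acid dehydrogenase, held none. In C57BL/6 livers BCL6 was called at 45 of the 58 when fed and 38 when fasted, PPARα at 51 and 55, and PPARδ at 42 and 18. Their median was 5 sites per gene, against 4 for the 9 members. The most sites lay at *Slc38a4*, an amino acid transporter, with 17, *Slc25a13*, the mitochondrial aspartate-glutamate carrier, with 16, *Gldc*, of glycine cleavage, and *Ahcy*, of the methionine cycle, with 15 each, and *Gpt2* and *Bckdhb* with 11 each. For comparison, 6 genes of gluconeogenesis held a median of 7 sites and 9 genes of mitochondrial fatty acid oxidation a median of 2. Per megabase of assigned genome the medians were closer for some of these groups, at 73.0 sites per Mb for the members, 78.4 for the other pathway genes, 151 for gluconeogenesis and 67.8 for fatty acid oxidation.

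The fasted lists held fewer BCL6 and PPARδ peaks and more PPARα peaks at the 9 genes than the fed lists. BCL6 had 23 peaks fed and 15 fasted (C57BL/6), and PPARδ had 16 and 4. PPARα had 24 in fed and 34 in fasted livers. The whole lists differed in the same directions, with 15642 and 9613 peaks for BCL6, 7328 and 2399 for PPARδ, and 21410 and 29085 for PPARα. The lists hold no value of single replicates, so the difference between fed and fasted counts has no test, and a site missing from a list can lie just under the caller's threshold.

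**Figure D3:**
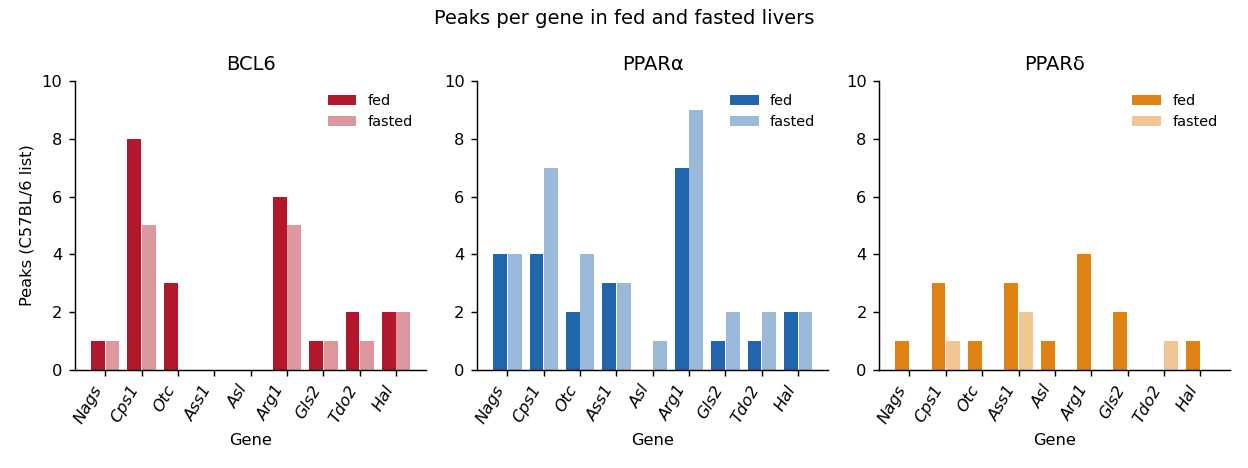
Number of peaks (y axis) at each gene (x axis) in fed (dark bars) and fasted (pale bars) C57BL/6 livers, 1 panel per factor. *Cps1* had 8 BCL6 peaks fed and 5 fasted, and *Arg1* had 7 PPARα peaks fed and 9 fasted, whereas *Ass1* and *Asl* had no BCL6 bar.

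For each factor, the genome's balance of states at single sites lay within the members' intervals of counting error, which are wide. Of 24 sites called for BCL6 in C57BL/6 livers, 9 were called in fed livers only (37.5%, 21.2 to 57.3%), beside 45.3% of all BCL6 sites. Both states held 14 (58.3%, 38.8 to 75.5%), beside 43.7%, and fasted livers alone held 1 (4.17%, 0.739 to 20.2%), beside 11.0%. That site lay 90 bp upstream of *Arg1*. For PPARα the balance ran the other way. Of its 35 sites, 1 was called in fed livers only (2.86%, 0.506 to 14.5%), beside 12.8% of all PPARα sites, 23 in both states (65.7%, 49.2 to 79.2%), beside 51.3%, and 11 in fasted livers only (31.4%, 18.6 to 48.0%), beside 35.8%. PPARδ was mostly a fed-state call, with 13 of 17 sites in fed livers only (76.5%, 52.7 to 90.4%), beside 70.7%, 3 in both (17.6%, 6.19 to 41.0%), beside 18.7%, and 1 in fasted livers only (5.88%), beside 10.6%. Each interval given here held the share over all sites.

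**Figure D4:**
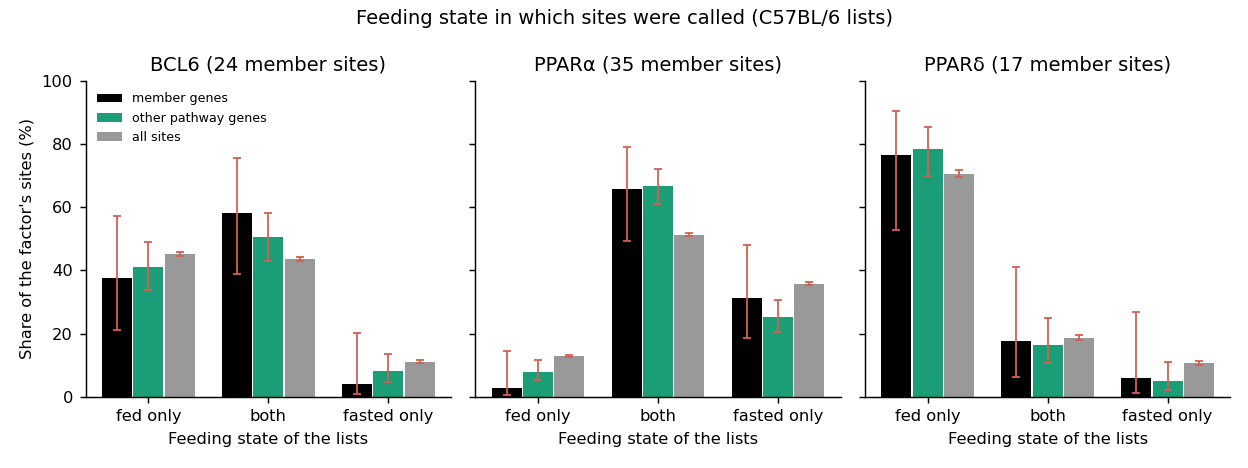
Share of each factor's sites (y axis, %) that were fed only, called in both states or fasted only (x axis), for the 9 members, the other pathway genes and all sites. Error bars show the 95% Wilson interval of counting error. The intervals of the members span the bars of all sites in all 3 panels.

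The same balance was counted, after the values were seen, for the 20 sites inside the gene coordinates given below and the 26 outside them. BCL6 was called in both states at 3 of 8 sites inside (37.5%, 13.7 to 69.4%) and at 11 of 16 outside (68.8%, 44.4 to 85.8%). PPARα calls were fasted-only at 8 of 13 sites inside (61.5%, 35.5 to 82.3%) and at 3 of 22 outside (13.6%, 4.75 to 33.3%). With the gene starting at the curated mRNA used for distances, the promoter sites 136 bp upstream of *Cps1* and 65 bp upstream of *Otc* count as outside, and the PPARα shares were 54.5% (28.0 to 78.7%) inside and 20.8% (9.24 to 40.5%) outside. The 2 PPARα intervals thus overlap or not by where these 2 sites are put, and the difference was not tested. The split was counted at the 9 genes only, so it is unknown whether other genes show it. Over all sites, unsplit, 43.7% of BCL6 sites were called in both states and 35.8% of PPARα sites in fasted livers only.

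BCL6 and PPARα mostly shared their sites. Of 30 sites called for BCL6 in any of its 3 lists, 23 were also called for PPARα (76.7%, 59.1 to 88.2%), beside 74.1% over the genome. Where both were called in fed livers, at 16 sites, the peak centers lay a median of 20.5 bp apart, from 6.00 to 140 bp. Joining centers at most 200 bp apart keeps such distances short by construction. Over all sites called for both in fed livers the median was slightly larger, so short distances are not particular to these genes. All 3 factors met at 10 sites (21.7%, 12.3 to 35.6%), beside 13.7% of all sites. PPARα was called alone at 10 sites (21.7%, 12.3 to 35.6%), beside 36.4%, and BCL6 alone at 6 (13.0%, 6.12 to 25.7%), beside 14.5%. PPARδ was called alone at 4 sites (8.70%, 3.43 to 20.3%), 1 each at *Cps1*, *Ass1*, *Gls2* and *Tdo2*, beside 2.69% of all sites.

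**Figure D5:**
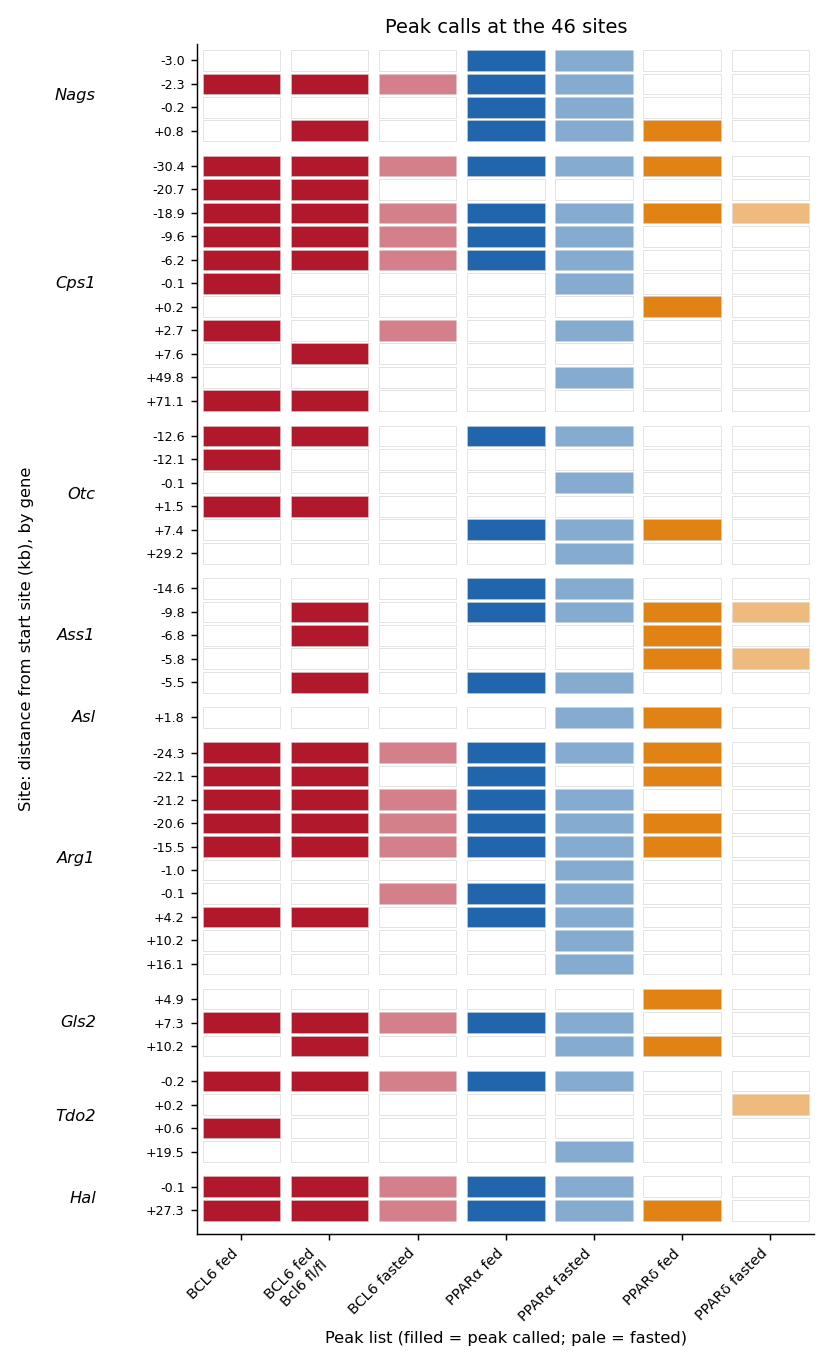
Peak calls at the 46 sites (rows, by distance from the start site in kb, grouped by gene) in the 7 lists (columns). A filled box is a called peak, pale where the livers were fasted. The *Cps1* site at 18.9 kb is the only row filled in all 7 columns. The *Otc*, *Ass1* and *Asl* rows have no filled box in the fasted BCL6 column.

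*Nags*, at the head of the pathway (chr11:102145513-102149528, plus strand), carried PPARα at all 4 of its sites in both feeding states. The sites lay 2979, 2295 and 167 bp upstream of the start site and 797 bp downstream of it, in intron 1. BCL6 joined PPARα in fed and fasted livers at the 2295 bp site, the one printed above with a BCL6 element at bases 81 to 89. The intron 1 site was the only one with PPARδ, in fed livers, and it held BCL6 in the fed *Bcl6* fl/fl list alone. At every *Nags* site the PPARα and C57BL/6 BCL6 calls were the same in both states.

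*Cps1* (chr1:67122426-67231267, plus strand) makes carbamoyl phosphate from ammonia and bicarbonate. Upstream, 5 sites stretched over 24160 bp, at 30357, 20692, 18900, 9550 and 6197 bp from the start site. All but the one at 20692 bp were called for BCL6 and PPARα in both feeding states. The site at 18900 bp was called in all 7 lists and was the only such site at the 9 genes. The site at 20692 bp was called for BCL6 alone, in fed livers of both genotypes, and held a BCL6 element with 1 mismatch. At the promoter, the site 136 bp upstream was called for BCL6 in fed and for PPARα in fasted livers and for neither in the other state. Of 2360 sites in the genome at which both were called in a single state, 873 were in opposite states, in either direction. The other 1487 were in the same state. At the 9 genes there was 1 of each, the same-state one being the *Arg1* site at 22062 bp. A 2nd promoter site 157 bp downstream, in exon 1, was called for PPARδ in fed livers only. Inside the gene, the intron 1 site at 2660 bp was called for BCL6 in both states and for PPARα in fasted livers. Intron 1 held another site at 7637 bp, exon 18 a fasted PPARα site at 49793 bp and intron 21 a fed BCL6 site at 71139 bp. The 7637 bp site was called in the fed *Bcl6* fl/fl list alone and in neither C57BL/6 BCL6 list.

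*Otc* (chrX:10252230-10321024, plus strand) joins carbamoyl phosphate and ornithine to citrulline. Its BCL6 calls were all from fed livers: the sites at 12586 and 12052 bp upstream and at 1524 bp in intron 1 were called for BCL6 there, and none was in the fasted list. PPARα was called at 4 sites. Those at 12586 bp upstream and 7428 bp downstream, in intron 1, were called in both states, and those at 65 bp upstream and 29179 bp downstream, in intron 4, in fasted livers only. The first pair held the PPAR elements of this gene, with 1 mismatch at 12586 bp and 2 at 7428 bp. BCL6 and PPARα met only at the 12586 bp site.

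*Ass1* (chr2:31470270-31520670, plus strand) condenses citrulline with aspartate. Its 5 sites all lay upstream, at 14613, 9778, 6802, 5774 and 5453 bp, and those at 14613 and 9778 bp fell inside the neighboring gene *Hmcn2*. PPARα was called at 14613, 9778 and 5453 bp in both states. PPARδ was called at 9778 and 5774 bp in both states, the 5774 bp site being PPARδ's alone, and at 6802 bp in fed livers. *Ass1* thus held 2 of the 4 fasted PPARδ peaks at the 9 genes. BCL6 was absent from both C57BL/6 lists here but was called in the fed *Bcl6* fl/fl list at 9778, 6802 and 5453 bp. These are 3 of the 6 sites at the 9 genes that were called for BCL6 in the *Bcl6* fl/fl list alone.

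*Asl* (chr5:130011258-130024381, minus strand) splits argininosuccinate into arginine and fumarate. Its single site lay 1832 bp from the start site, in intron 2. PPARδ was called there in fed livers only and PPARα in fasted livers only, and BCL6 in no list. The same pair of calls, PPARδ in fed only and PPARα in fasted only, was seen once more, at 10242 bp in *Gls2*. Over all sites, 991 were called in a single state for each of these receptors, of which 601 were in opposite states, in either direction.

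*Arg1* (chr10:24915207-24927470, minus strand) releases urea. Upstream, 5 sites lay within 8805 bp of one another, at 15504, 20573, 21173, 22062 and 24309 bp from the start site, and all were called for BCL6 in fed livers of both genotypes and for PPARα in fed livers. In fasted livers 4 of the 5 also held both calls. The exception, at 22062 bp, was called for BCL6, PPARα and PPARδ in fed livers and for none of them in fasted livers. PPARδ was called at 4 of the 5, always in fed livers only. Nearer the gene the calls were mainly PPARα: fasted only at 952 bp upstream, at 10194 bp in intron 4 and at 16051 bp, beyond the gene and inside *Med23*, and both states at 90 bp upstream and at 4246 bp in intron 1. BCL6 was called at 90 bp upstream in fasted and at 4246 bp in fed livers. The 952 bp site held a PPAR element with 1 mismatch, and the 15504 and 21173 bp sites each a BCL6 element with 1 mismatch.

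*Gls2* (chr10:128194635-128210004, plus strand), the liver glutaminase, held its 3 sites inside the gene. Intron 7, at 7340 bp, was called for BCL6 and PPARα in both states. Intron 2, at 4919 bp, was called for PPARδ in fed livers only. Exon 11, at 10242 bp, was called for PPARδ in fed and PPARα in fasted livers, and for BCL6 in fed *Bcl6* fl/fl livers. The nearest start site to this last one is that of *Spryd4*, so it cannot be told apart which gene it belongs to.

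*Tdo2* (chr3:81958412-81975728, minus strand), which opens the indole ring of tryptophan, had 3 of its 4 sites at the promoter. The site 184 bp upstream was called for BCL6 and PPARα in both states. The sites at 197 bp in intron 1 and at 590 bp in intron 2 were each called in 1 list, PPARδ in fasted and BCL6 in fed livers. The 590 bp site held the only BCL6 element without a mismatch among the 46 sites. A PPARα site called in fasted livers only lay 19455 bp from the start site, beyond the gene and inside *Ctso*. *Tdo2* was the only member with more PPARδ peaks fasted than fed, 1 against 0.

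*Hal* (chr10:93488768-93516761, plus strand), which deaminates histidine, had 2 sites. Both were called for BCL6 and PPARα in fed and fasted livers and in the *Bcl6* fl/fl list. One lay 99 bp upstream and the other 27309 bp downstream, in intron 19, where PPARδ was added in fed livers. The intron 19 site is nearest to the start of *Amdhd1*, another gene of histidine breakdown, and is counted for both.

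The *Bcl6* fl/fl list served as a second map of fed BCL6. Of 23 sites called in fed C57BL/6 livers, 19 were called there too (82.6%, 62.9 to 93.0%), beside 69.6% over the genome. Sites held in both feeding states were found again at 13 of 14 (92.9%, 68.5 to 98.7%) and fed-only sites at 6 of 9 (66.7%, 35.4 to 87.9%). Over all sites these shares were 88.7 and 51.1%. The 3 fed-only sites without a second call lay 136 bp upstream of *Cps1*, 12052 bp upstream of *Otc* and 590 bp downstream of the *Tdo2* start. The opposite calls of BCL6 and PPARα at the *Cps1* promoter therefore rest on 1 fed BCL6 list.

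Short sequence elements were searched in 200 bp around each site center on both strands. The PPAR element was found at 3 of 46 sites (6.52%, 2.24 to 17.5%), the *Otc* sites at 12586 bp upstream and 7428 bp downstream and the *Arg1* site 952 bp upstream, beside 13.1% of all sites. All 3 were called for PPARα, and the share among PPARα sites was 8.57% (2.96 to 22.4%), beside 13.9%. The BCL6 element was found at 7 sites (15.2%, 7.57 to 28.2%), beside 10.8%: 3 at *Cps1*, 2 at *Arg1* and 1 each at *Nags* and *Tdo2*. All 7 were called for BCL6, and 23.3% (11.8 to 40.9%) of the members' BCL6 sites held one, beside 15.0%. At 3 of the 7 the letters read TTCCAGGAA. These letters also fit the TTC and GAA arms that STAT factors bind, as do TTCTAGGAA at *Tdo2* and the searched element itself. The C/EBP element was found at 7 sites (15.2%, 7.57 to 28.2%), beside 9.37%, and the FOXA element at 4 (8.70%, 3.43 to 20.3%), beside 7.46%. Each member interval holds the share over all sites. A match is a description of the letters and does not show that a factor bound them.

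Promoter sequences of RefSeq (GRCm38, 250 bases before to 50 after the start) were matched for 5 members, *Ass1*, *Tdo2*, *Hal*, *Nags* and *Otc*. Among them, only that of *Hal* held an element, the C/EBP element printed above, which 5.92% of all 32851 promoters held. PPAR, BCL6 and FOXA elements were found in 3.86, 8.63 and 3.65% of promoters. The promoters of *Tdo2*, *Hal*, *Nags* and *Otc* each held a site center, at 184, 99, 167 and 65 bp upstream, and that of *Ass1* held none.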

How the data were processed

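Male mouse livers were profiled by ChIP-seq. Reads were placed on mm10 by the authors with Bowtie, with ambiguous reads and repeated start positions left out. HOMER then gave peaks over input from the merged replicates, which the authors filtered with DESeq2 on single libraries. The deposited lists give positions only, without any count, score or p-value, so read depth is unknown, and repeated sequence can lack peaks.

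Peak centers within 200 bp were joined by single linkage over the 7 lists. Sites were assigned with the RefSeq annotation of GRCm38, the assembly of mm10, through 84748 mRNAs of 21774 protein-coding genes, and a site inside 1 gene but nearest to another was counted for both. Distances refer to the lowest-numbered curated mRNA. Shares have 95% Wilson intervals, and no test was run because replicates are pooled. The 9 members were all named. Of the pathway list, the 5 genes with the most sites, with ties, and those with none were named. Sites were described where they were called in the most lists, lay within 1000 bp of a start site or held opposite calls, and the remaining sites were added after their values were seen. The members and lists were chosen with earlier results of these data known. The functions were tested on simulated data. Python 3.11.15, NumPy 2.4.6, pandas 2.3.3, SciPy 1.17.1 and Matplotlib 3.10.9 were used. Samples of other genotypes, H3K27ac and input are not analysed here. Alternatives varied the joining distance, the reach, the transcripts, the lists and the element searches.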

Additional observations from a re-analysis of the deposited data

How the results depend on the processing

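Of 138 values recomputed under 1 changed choice, 117 stayed within 1.5 times the count or within the interval of the share. Joining peaks within 100 or 400 bp or by overlap left every value compared there in this range. So did a reach of 50 kb or 1 Mb, curated mRNAs only, the nearest start site only and C57BL/6 lists only. The curated mRNA as the gene body (added after seeing the data) did so too. The same held with the *Bcl6* fl/fl list taken as fed BCL6, or with fed calls of both fed BCL6 lists only. These choices gave 42 to 51 sites. Counting only sites inside the genes, by construction fewer, left 20 sites, with 8, 8 and 3 BCL6 peaks (fed, fed *Bcl6* fl/fl, fasted), 5 and 13 PPARα peaks (fed, fasted) and 7 and 1 PPARδ peaks. Genes with a peak were then 3 for fasted BCL6, 5 for fed PPARα and 1 for fasted PPARδ. BCL6 sites were called in fed livers only at 62.5%, in both at 37.5% and in fasted only at 0%. PPARα sites stood at 0% fed only, 38.5% both and 61.5% fasted only, and PPARδ sites at 0% both. Shares over all sites were not counted under this rule. In 50 bp around the center, the PPAR element was found at 0% of sites (0 to 7.71%), beside 4.18% of all sites. The BCL6 element was found there at 6.52% (2.24 to 17.5%), beside 3.19%. Without a mismatch, the BCL6 element was found in 200 bp at 2.17% (0.385 to 11.3%), beside 1.22%. With up to 1 mismatch, the PPAR element was found in 200 bp at 4.35% (1.20 to 14.5%), beside 3.06%. Whether its share lay below or above that of all sites thus changed with the setting. No paired analysis was possible because each list pools its replicates. Leaving out single replicates and stricter peak thresholds could not be run, since the lists hold positions only. The unknown depth limits every missing call: a site absent from a list was not detected there, and absence of binding was not shown.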

Other observations

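The other 58 pathway genes, grouped by branch after their values were seen, held sites in every branch. Over all protein-coding genes, 52.5% held at least 1 site. BCL6 and PPARα peaks of the C57BL/6 lists lay at 20.6 to 46.0% of them, fed PPARδ peaks at 18.6% and fasted ones at 8.69%. Differences between branches were not tested. The 7 tryptophan genes other than *Tdo2* held 42 sites, and all 7 held BCL6 and PPARα peaks in either feeding state and fed PPARδ peaks. The 7 genes of methionine and cysteine metabolism held 52 sites, among them *Ahcy* with 15 and *Mat1a*, which makes S-adenosylmethionine, with 8. PPARδ had 9 fasted peaks in this branch, against 4 at the 9 member genes. The 6 genes of phenylalanine and tyrosine breakdown held 37 sites and 12 fed PPARδ peaks, but 0 fasted ones. The lysine genes also had 0 fasted PPARδ peaks, against 5 fed. The whole PPARδ lists held 2399 peaks fasted and 7328 fed. The 6 genes of glycine and serine metabolism also held 37 sites, 15 of them at *Gldc*.

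The 7 genes of branched-chain amino acid breakdown held 23 sites, 11 of them at *Bckdhb*, and *Dbt* had none. BCL6 had 8 peaks there fed and 2 fasted (C57BL/6), and PPARα had 11 and 15. The 3 proline genes held 10 sites, with 1 fed and 2 fasted BCL6 peaks and 6 fed and 9 fasted PPARα peaks, and the 3 lysine genes held 14 sites with 6 fed and 4 fasted BCL6 peaks.

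Genes of fatty acid oxidation, counted for comparison, held fasted PPARδ peaks more widely. PPARδ was called in fasted livers at 8 of the 9 mitochondrial oxidation genes, against 3 of the 9 members and 8.69% of all protein-coding genes. Its sites at the oxidation genes were called in both states at 62.5% (10 of 16). At the members this share was 17.6% (3 of 17), near the 18.7% of all PPARδ sites. This difference was not tested.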
